A study of Mus musculus with 2 samples.

Results

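B16F10 is a highly metastatic subclone of the mouse melanoma line B16, and B16F0 is the parental line. The submitters profiled 1 culture of each line by droplet single-cell RNA sequencing of polyadenylated RNA, with no treatment named in the labels. The deposited cell table places 306 of the 1574 B16F10 cells in a cluster called C3. These 306 cells, of 4156 in the series, are described here against the other 1268 B16F10 cells, of which 1045 lie in cluster C5 and 212 in C4. B16F0 also has a cluster C3, with 640 of its 2582 cells, which serves as a side comparison. No source used here states how its clusters came about. A cluster is drawn from the expression of the cells it holds, so C3 against the rest is a description and carries no test, and 1 library per line leaves no replicate error. Intervals below are exact 95% intervals that cover counting error only.

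C3 was above all the non-cycling cluster of B16F10. The deposited classes call 280 of its 306 cells non-cycling (91.5%), against 64 of the 1268 other cells (5.05%). A trajectory analysis in the same table puts 283 of the 306 in its state 7, with the remaining 23 in state 1, where 1231 of the other cells lie. Each gene was therefore read on 2 scales: all C3 cells against all other B16F10 cells, and non-cycling C3 cells against the 64 non-cycling cells outside C3.

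Low oxygen stabilises the HIF transcription factors, which bind hypoxia response elements near their target genes and raise glucose uptake, glycolysis, mitophagy and protein folding enzymes. BNIP3, a marker given for C3, is a mitochondrial outer membrane protein and a HIF target that drives the removal of mitochondria. MXD4, the other marker, pairs with MAX and represses genes that MYC activates, and it is known from cells leaving the cycle. The transcription factor p53 slows the cycle through targets such as Cdkn1a and Ccng1.

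Bnip3 lies at chr7:138890836-138909519 and Mxd4 at chr5:34173883-34187720, both protein-coding genes on the minus strand of GRCm38 in the GENCODE annotation. The sequences upstream of both markers and of Hk2, the hexokinase that starts glycolysis, are shown because hypoxia genes were higher together in C3. They come from the RefSeq promoter table of GRCm38.p6, start at most 250 bases before the RefSeq start, leave out bases inside the GENCODE gene, and overlap no annotated exon. They read 5′ to 3′ on the minus strand, and capitals mark the letters ACGTG or GCGTG, the core of the hypoxia response element, on either strand. The windows are chr7:138909520-138909756 for Bnip3, chr6:82774455-82774704 for Hk2 and chr5:34187721-34187960 for Mxd4.
Bnip3: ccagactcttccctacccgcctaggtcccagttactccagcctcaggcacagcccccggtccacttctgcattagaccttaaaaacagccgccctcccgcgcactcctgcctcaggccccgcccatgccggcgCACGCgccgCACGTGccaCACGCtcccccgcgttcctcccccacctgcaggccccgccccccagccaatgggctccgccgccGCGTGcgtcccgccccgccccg
Hk2: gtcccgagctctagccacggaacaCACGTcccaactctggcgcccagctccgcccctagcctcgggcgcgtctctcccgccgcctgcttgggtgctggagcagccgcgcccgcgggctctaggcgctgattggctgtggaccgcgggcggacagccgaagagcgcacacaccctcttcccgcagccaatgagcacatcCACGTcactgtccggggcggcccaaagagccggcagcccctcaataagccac
Mxd4: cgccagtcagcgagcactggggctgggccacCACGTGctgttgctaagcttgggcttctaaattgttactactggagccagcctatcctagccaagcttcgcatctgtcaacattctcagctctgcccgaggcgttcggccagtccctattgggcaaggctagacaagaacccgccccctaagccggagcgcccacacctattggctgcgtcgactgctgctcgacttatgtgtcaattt
The Bnip3 window held 5 matches and the Hk2 window 2. The 2 matches of Mxd4 are a single CACGTG that reads the same on both strands, and the Bnip3 count holds 1 such site too. A match is a description of letters, not of binding. Of 27025 promoters of 250 bases, 38.6% held a match, as did 61.1% of the 6097 whose genes reached 10 CPM, the usual scaling of UMI counts by the group's total, in C3 or in the other B16F10 cells. Among the 25 hypoxia genes measured at that level, 22 were matched to a promoter and 17 of those held one (77.3%).

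C3 cells carried the melanoma markers. Mlana, Tyrp1 and Dct, genes of the pigment cell lineage, had a UMI (a counted molecule) in 100% of C3 cells, and Sox10 in 90.5%. The median C3 cell held 30159.5 UMIs, against 36163 in the other B16F10 cells, and its median mitochondrial share was 7.88% against 6.42%. In UMIs the closest groups were level with it: C4 had a median of 29693, and the non-cycling cells outside C3 had 30860.5 against 30160 in non-cycling C3 cells. The median mitochondrial share was 8.58% in C4, and 6.96% in the non-cycling cells outside C3 against 7.90% in non-cycling C3 cells. Between the same non-cycling groups, the median ribosomal share was 25.5% against 29.5%, and the median number of genes 5190 against 4816. Filters on mitochondrial share and depth are given at the end. Beyond these, the part of these differences in the results was not tested. In all, C3 contributed 9971222 UMIs and the other cells 46777460. Markers of other cell types summed to 7.92 CPM in C3 against 10.1 for 5 fibroblast genes, and to 6.12 against 3.46 for 2 macrophage genes. Of 3 keratinocyte genes, 3 were at 0 in C3, where 4 endothelial genes summed to 146 CPM against 134, mostly Eng at 81.3 CPM. Their part in the results was not tested. Of 6 barcode sequences found in both libraries, 0 belonged to a C3 cell of B16F10. No cell type that lacks Bnip3 was in the cultures, so the share of cells with stray UMIs was not measured.

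Mxd4 separated C3 from cycling cells rather than from other non-cycling ones. Its summed level was 56.5 CPM (51.9 to 61.3) in C3 and 15.2 CPM (14.1 to 16.4) in the other B16F10 cells, a log2 ratio of 1.89 (1.73 to 2.05). With every cell thinned to 23173 UMIs, 57.6% of 257 C3 cells and 22.2% of 1159 other cells had an Mxd4 UMI, compared with 65.7% and 28.7% unthinned. Against the 64 non-cycling cells outside C3 the levels were 59.6 and 66.5 CPM, which gives a log2 ratio of -0.16 (-0.43 to 0.12). The thinned share outside C3 was 61.1%. The interval of that ratio spans 0. In B16F0 the level was 69.4 CPM in C3 and 61.9 CPM outside it, a log2 ratio of 0.17. There, 602 of the 1942 cells outside C3 were non-cycling (31.0%). Within the family of MYC and MAX partners, Mxd3, a member expressed in dividing cells, was lower in C3 (2.31 against 28.1 CPM) and Mxi1, a HIF target, was at 27.2 against 18.4 CPM.

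Bnip3 was carried by a minority of C3 cells. Its summed level was 138 CPM (131 to 146) in C3 and 40.1 CPM (38.3 to 42.0) elsewhere in B16F10, a log2 ratio of 1.79 (1.69 to 1.89). Against non-cycling cells the ratio widened to 2.79 (2.36 to 3.25), from 148 and 21.4 CPM. Per cell, though, the C3 values ran from 0 through a median of 0 to 1781 CPM, and 170 of the 306 cells had no Bnip3 UMI. The 46 cells with at least 200 CPM (15.03%, exact binomial interval 11.2 to 19.5) held 88.9% of all Bnip3 UMIs of C3. The share of C3 cells with any Bnip3 UMI, 44.4%, was close to the 45.1% of the other B16F10 cells, and 38.5% against 33.9% after thinning.

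**Figure D1:**
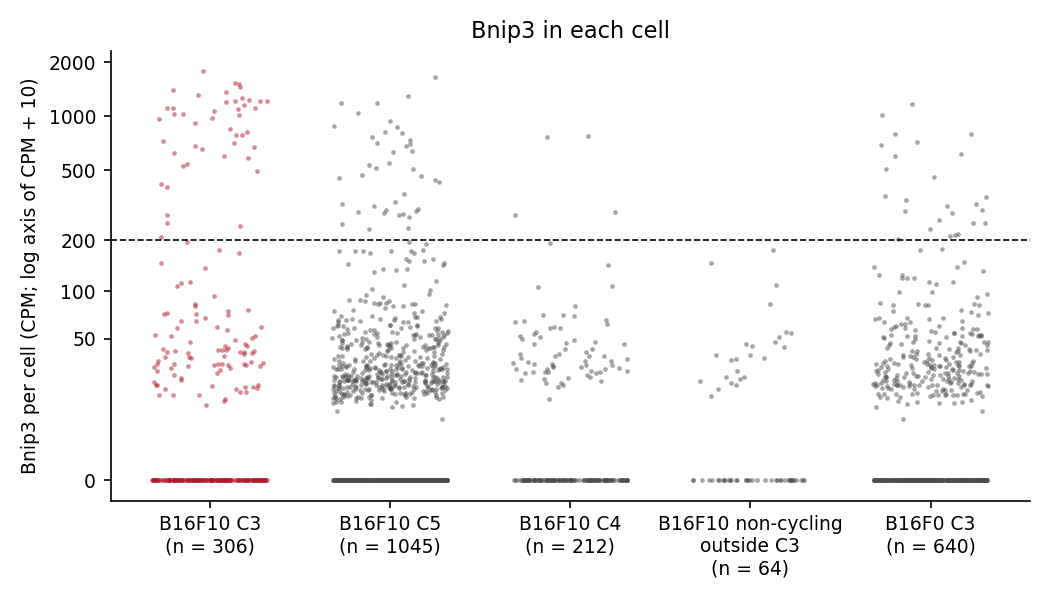
Bnip3 level of each cell in CPM (vertical, log axis of CPM + 10) in B16F10 C3, C5 and C4, in the B16F10 non-cycling cells outside C3, and in B16F0 C3, with 1 point per cell and a dashed line at 200 CPM. Of the 306 C3 cells, 46 lie above the line and 170 at 0, while 0 of the 64 non-cycling cells outside C3 reach it.

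The class at or above 200 CPM, called Bnip3-high here, was set after the values had been seen and is a range of levels, not a cell type. Only 12 of the 306 C3 cells lay between 100 and 400 CPM. Outside C3, 45 of 1268 B16F10 cells were Bnip3-high (3.55%, 2.60 to 4.72), 41 of them in C5 (3.92% of that cluster) and 4 in C4 (1.89%). Of the 64 non-cycling cells outside C3 it was 0, which allows a share of up to 4.69% by a limit of 3 cells, or 5.60% as the exact upper bound. In B16F0 C3 the count was 26 of 640 (4.06%, 2.67 to 5.90), and in the other B16F0 cells 32 of 1942 (1.65%). Bnip3-high C3 cells had a median of 29279.5 UMIs against 30163 in the remaining C3 cells, with upper quartiles of 32824 and 38972.8, and a median of 4533.5 genes against 4882.5. The median mitochondrial shares were 7.91% and 7.84%. The part of these differences in the results was not tested. Of the 46, 44 were non-cycling.

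Among genes above a low level, more were lower than higher in C3. Of 5399 genes with at least 20 CPM in either sum, 62 were at least 2-fold higher in C3 (1.15%) and 321 at least 2-fold lower (5.95%). With no minimum level the balance turned, with 1315 genes higher and 924 lower. The list of S phase genes was lower by at least 1.5-fold for 41 of 42 members (median log2 ratio -1.92), and the G2 and M list for 51 of 51 (median -2.54). At the same 1.5-fold limit and at least 10 CPM, 348 of 7444 genes were higher (4.67%) and 1156 lower (15.5%), with a median log2 ratio of -0.13. Ccna2, the A-type cyclin of S phase and mitosis, was at 4.91 CPM in C3 and 112 CPM elsewhere. Top2a, the topoisomerase of dividing cells, was at 21.6 against 242 CPM, and the mitotic kinase gene Aurkb at 3.01 against 58.2 CPM. These genes follow the cycling classes that also separate the clusters, so they describe C3 and support nothing further.

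Beyond Mxd4 and Bnip3, the largest ratios towards C3 among genes with at least 50 CPM belonged to Hist1h2bc, Grb14, Ero1l, Kdm7a, Nupr1, Ypel3, Ppp1r15a and Hmox1. Grb14, an adaptor that dampens insulin receptor signalling, was at 118 CPM against 35.9 (log2 ratio 1.71). Nupr1, a stress-induced nuclear protein, was at 322 against 126 CPM, and Ppp1r15a, the phosphatase subunit that ends the integrated stress response, at 159 against 65.3 CPM. Those 3 genes were not highest in C3. In cluster C4, Grb14 reached 191 CPM, Nupr1 431 CPM and Ppp1r15a 250 CPM, so the log2 ratios of C3 over C4 were -0.70, -0.42 and -0.66. In C5 they were at 11.3, 77.9 and 35.6 CPM. Mxd4 and Bnip3 differed here: they were higher in C3 than in C4 (log2 ratios 1.70 and 2.45) and than in C5 (1.98 and 1.70).

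Among non-cycling cells, 50 of 5236 genes were at least 2-fold higher in C3 (0.955%) and 113 lower (2.16%). Over these genes the median log2 ratio was -0.14, and scaling by TMM factors moved it to 0.02 and the calls to 84 higher and 72 lower. Higher calls were thus 30.7% of all calls by total UMIs and 53.8% by TMM. At 50 CPM or more, Grb14 had the next largest ratio after Bnip3 (114 against 22.3 CPM, log2 ratio 2.36), then Ero1l, Deptor, Ncoa7, Ppp1r15a and Ppargc1a. Deptor, an inhibitor of the kinase mTOR, was at 125 against 41.8 CPM. Ppargc1a, a coactivator of mitochondrial biogenesis, was at 221 against 78.8 CPM. Among genes with at least 50 CPM, Hspb6, a small heat shock protein gene, had the lowest ratio (11.8 against 57.0 CPM, log2 ratio -2.27). Pclaf, Cdca8, Knstrn and Cenpa, all tied to replication or mitosis, were again lower, as were S100a11 (56.6 against 176 CPM) and Id3 (49.1 against 137 CPM). The non-cycling groups thus still differed in cycle genes: 22 of 31 measured G2 and M genes were lower in C3 by 1.5-fold or more. At that limit 357 of 7277 genes were higher (4.91%) and 852 lower (11.7%).

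Hypoxia genes were higher in C3 on both scales. Of 38 listed names, 35 were in the table and 25 reached 10 CPM in either sum, so a gene could enter through C3 alone. Pdk1, below 10 CPM in the other B16F10 cells, did so and counts as higher, and such genes were not counted apart. Of the 25, 11 were at least 1.5-fold higher in C3 and 0 lower, against 4.67% and 15.5% of all genes. Their median log2 ratio was 0.55, against -0.13 over all genes. Between non-cycling cells 13 of 25 were higher and 0 lower, against 4.91% and 11.7% of all genes, with a median of 0.62. There TMM scaling gave 16 of 25, against 8.79% of all genes higher by TMM. Ero1l, the oxidase that renews disulphide bond formation in the endoplasmic reticulum, was at 218 CPM (209 to 227) against 76.3 (73.8 to 78.8), a log2 ratio of 1.51. Hk2 was at 108 against 57.6 CPM (log2 ratio 0.91, 0.81 to 1.01). Fam162a and Higd1a, both hypoxia-induced mitochondrial proteins, were at 436 against 277 CPM and at 449 against 306 CPM. Vegfa, the vascular growth factor, was at 18.8 against 11.2 CPM. Ldha, the lactate-forming dehydrogenase, went the other way (941 against 1226 CPM, log2 ratio -0.38), as did the repressor gene Bhlhe40 (10.5 against 14.6 CPM).

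Of 10 measured members of the oxygen sensing list, 0 were 1.5-fold higher or lower in C3, with a median of -0.08 and beside 4.67% of all genes higher and 15.5% lower. Between non-cycling cells 1 was higher, Egln1, the oxygen sensor that is itself a HIF target (20.4 against 13.3 CPM, log2 ratio 0.62, lower bound 0.04). Hif1a, the oxygen-labile subunit of HIF, was at 57.1 CPM in C3 and 59.4 CPM outside. In glycolysis 7 of 19 measured genes were higher and 0 lower (median 0.30), among them Hk1 (34.0 against 21.2 CPM) and the glucose transporter gene Slc2a1 (24.0 against 13.6 CPM), while Tpi1, Pgam1, Eno1 and Gapdh were among those with log2 ratios below 0. Pdk1, also on this list, entered through C3 alone and counts as higher here too.

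Without the 46 Bnip3-high cells, most of this difference was absent. The remaining 236 non-cycling C3 cells had 1 of 22 measured hypoxia genes other than Bnip3 at least 1.5-fold higher than the 64 non-cycling cells outside C3 and 5 lower, with a median of -0.20 (-0.23 with Bnip3). Across all genes the shares were 4.77% higher and 11.2% lower. The level of Bnip3 was set by this choice of cells (18.1 against 21.4 CPM). Fam162a was at 218 against 255 CPM and Higd1a at 244 against 263. Vegfa was the gene that passed the limit, at 15.2 against 6.17 CPM (log2 ratio 1.30, 0.47 to 2.25), and it reached 10 CPM only on the C3 side. Ero1l came next to it at 105 against 71.2 CPM (log2 ratio 0.56, 0.31 to 0.82), and Hk2 at 58.0 against 43.7 CPM. Over all cells, with Bnip3-high cells left out on both sides, the hypoxia median was -0.03, with 3 of 24 genes higher and 3 lower. Glycolysis went to -0.30, with 1 of 16 higher and 1 lower. Genes with at least 20 CPM had a median of -0.14 there.

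**Figure D2:**
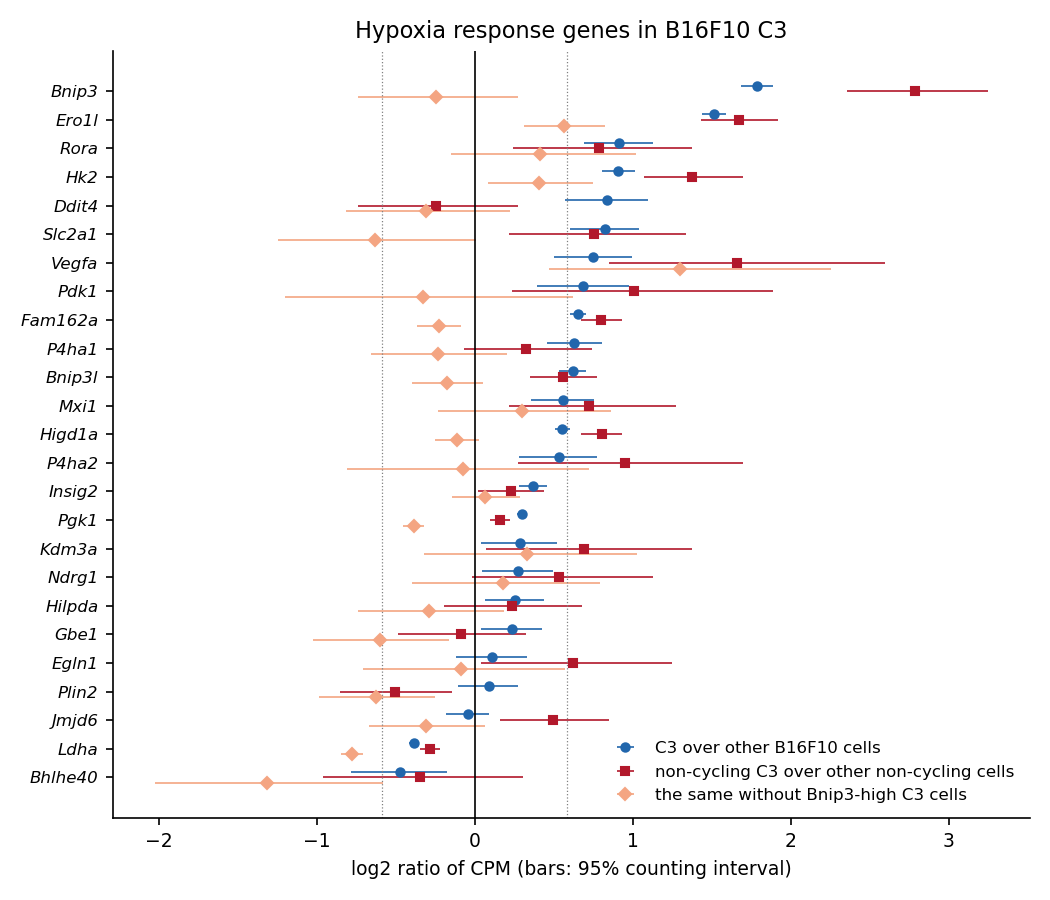
Log2 ratio of CPM (horizontal, bars are 95% counting intervals) of the 25 measured hypoxia response genes for C3 over the other B16F10 cells, for non-cycling C3 over the other non-cycling cells, and for the latter without Bnip3-high C3 cells, with dotted lines at 1.5-fold. Over the genes that reach 10 CPM in each comparison, the median is 0.55 and 0.62 (25 genes each), and -0.23 (23 genes) without the Bnip3-high cells.

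Inside C3 the Bnip3-high cells had higher levels of most hypoxia and glycolysis genes. The counts here take only genes that reach 10 CPM in the cells that are not Bnip3-high, so that no gene enters through the Bnip3-high cells, and leave Bnip3 out. Against the other 260 C3 cells, 19 of 20 such hypoxia genes were at least 1.5-fold higher and 0 lower (median log2 ratio 1.98), and the exception was Ddit4. The other 14 of the 34 in the table were below that level. In glycolysis 14 of 15 were higher (median 1.61). Over all such genes 312 of 6876 were higher (4.54%) and 1122 lower (16.3%), with a median of -0.13. Bnip3 chose these cells, and its own ratio is not a result.

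Several list members and other genes are given by their values, many of them low outside the Bnip3-high cells. Slc16a3, the lactate exporter, was at 102 CPM in Bnip3-high and 5.35 CPM in the other C3 cells (log2 ratio 4.25, 3.76 to 4.76). Slc2a1 was at 116 against 9.30 CPM, and Pdk1, the kinase that keeps pyruvate from the mitochondria, at 65.8 against 5.23 CPM. Fam162a was at 1800 against 220 CPM (log2 ratio 3.04), Higd1a at 1729 against 245 and Ero1l at 931 against 105 CPM. Hk2 was at 432 against 56.7 CPM (log2 ratio 2.93), and P4ha2, a collagen prolyl hydroxylase gene, at 73.2 against 9.07 CPM. Ldha, which was lower in C3 as a whole, was at 2615 against 675 CPM. Outside both lists, Selenbp1 (68.8 against 2.67 CPM), Prelid2, Itpk1, Espn and the MHC class I gene H2-K1 (54.9 against 6.04 CPM) had ratios as large. Egln1 was at 71.0 against 12.4 CPM, whereas Hif1a was at 50.5 against 58.1 CPM.

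Single cells showed the same difference, with ranges that overlapped. In cells thinned to 23173 UMIs, the hypoxia genes without Bnip3 and without Ddit4, which is also on the p53 list, summed to a median of 315 UMIs (77 to 485) in 39 Bnip3-high cells and 52.5 UMIs (23 to 253) in 218 others. Of the 218, 0 reached the lower quartile of the Bnip3-high cells (253.5 UMIs). Glycolysis genes outside the hypoxia list summed to a median of 346 against 107 UMIs. Over the 257 thinned C3 cells, the genes whose counts followed Bnip3 most closely among 2772 were Higd1a (Spearman's rho 0.52), Fam162a (0.50), Ero1l (0.50), Bsg (0.46) and Tpi1 (0.46). For Mxd4 they were Hspa8 (0.34), Vim (0.31) and Tuba1a (0.30), with Cdkn1a at 0.28. These cells share 1 library, and the values describe it. Bnip3 and Mxd4 counts were almost unrelated (rho -0.02), and Mxd4 was at 47.6 CPM in Bnip3-high and 57.9 CPM in the other C3 cells (log2 ratio -0.28, -0.68 to 0.09).

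Bnip3-high cells outside C3 had higher hypoxia genes too. The 45 Bnip3-high cells of the other B16F10 clusters were all of the cycling class. In them, 21 of 22 hypoxia genes, counted in the same way without Bnip3, were at least 1.5-fold higher than in the other 1223 cells (median 1.72), against 3.23% of all genes. Fam162a was at 1245 against 240 CPM there and Slc16a3 at 97.9 against 7.77 CPM. In the 26 Bnip3-high C3 cells of B16F0 it was 18 of 20 (median 1.36), against 5.87% of all genes, with Fam162a at 1466 against 165 CPM. The shares of Bnip3-high cells in the clusters given above describe 1 library each, and their difference was not tested.

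Targets of p53 were higher in C3 as a whole, but less so against non-cycling cells. Of 38 listed genes, 36 were in the table and 26 reached 10 CPM in either sum. Trp53inp1 and Trp53cor1 reached it only in C3, being at 6.29 and 7.20 CPM outside, and both count as higher there. Of the 26, 13 were at least 1.5-fold higher, against 4.67% of all genes, and 0 lower (median log2 ratio 0.57). Against non-cycling cells it was 4 of 26, against 4.91% of all genes, and 0 lower (median 0.15). TMM scaling gave 8 of 27, against 8.79% of all genes. With both deposited cycle scores under -0.1, which left 225 C3 cells and 29 others, the median was -0.06. There 4 of 28 were higher and 4 lower, and genes with at least 20 CPM had a median of -0.18. Trp53inp1, a stress protein that works with p53, had the largest ratio: 36.6 against 6.29 CPM (log2 ratio 2.54, 2.32 to 2.77) over all cells and 38.3 against 15.2 CPM (1.33, 0.81 to 1.90) among non-cycling ones. Dcxr, a carbonyl reductase gene, was at 48.8 against 18.6 and at 51.6 against 30.4 CPM. Gadd45a, a growth arrest gene, was at 71.7 against 42.0 and at 68.6 against 37.5 CPM. Trp53cor1, a long noncoding RNA next to Cdkn1a, completed the 4 (23.7 against 13.8 CPM).

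Cdkn1a, the inhibitor of cyclin-dependent kinases, was at 297 CPM (287 to 308) in C3 and 156 CPM (153 to 160) outside, a log2 ratio of 0.93. Per cell its C3 values ran from 0 through a median of 171 to 2059 CPM, overlapping the other cells, which ran from 0 through 80.8 to 2430 CPM. Among non-cycling cells it was at 301 against 222 CPM (log2 ratio 0.44, 0.30 to 0.59). Ccng1, a p53-induced cyclin, was at 181 against 90.2 CPM over all cells but 186 against 174 among non-cycling ones (log2 ratio 0.10, -0.07 to 0.26). Trp53 itself was lower in C3 over all cells (43.5 against 67.1 CPM) and at 42.8 against 47.5 among non-cycling cells. Mdm2, the ligase that degrades p53, was at 55.5 against 46.0 CPM.

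**Figure D3:**
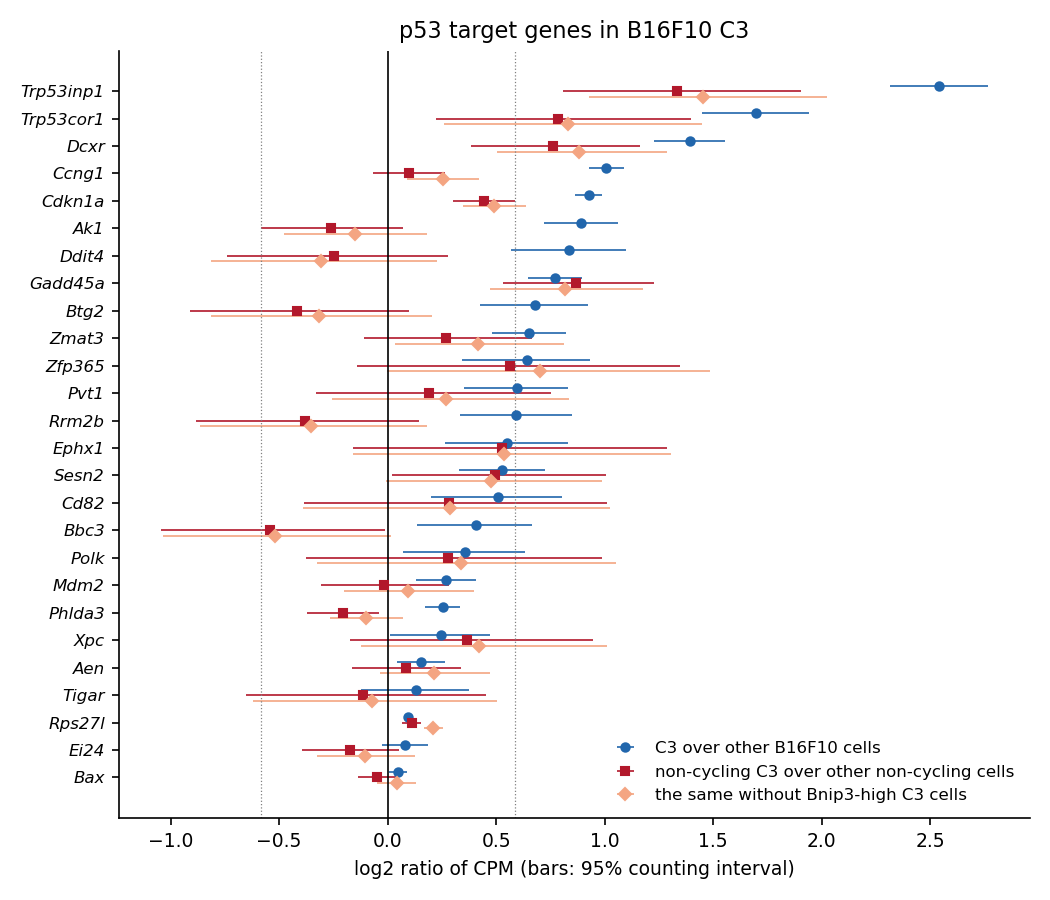
Log2 ratio of CPM (horizontal, bars are 95% counting intervals) of the 26 measured p53 target genes in the same 3 comparisons as the hypoxia plot, with dotted lines at 1.5-fold. The median is 0.57 over all cells and 0.15 among non-cycling cells.

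Inside C3 many p53 targets were lower in the Bnip3-high cells. Of 26 p53 targets that reached 10 CPM in the other C3 cells, 14 were at least 1.5-fold lower in Bnip3-high cells, against 16.3% of all genes, and 0 higher (median -0.65). Ccng1 was at 57.1 against 201 CPM (log2 ratio -1.82, -2.16 to -1.49), Trp53inp1 at 17.6 against 39.6 and Aen, a p53-induced nuclease gene, at 36.6 against 89.6 CPM. Cdkn1a differed less, at 241 against 306 CPM (log2 ratio -0.35), and in the Bnip3-high cells outside C3 it was higher, at 245 against 153 CPM (log2 ratio 0.68). Counted in the same way, 5 of 20 p53 targets were lower in those cells outside C3 and 1 higher (median -0.31, all genes -0.10). Of all genes there, 630 of 7186 were lower and 232 higher. In the Bnip3-high C3 cells of B16F0, 12 of 26 p53 targets were lower and 2 higher (median -0.42, all genes -0.14). Of all genes there, 1334 of 6733 were lower and 395 higher. In thinned C3 cells of B16F10 the p53 targets without Rps27l and Ddit4 summed to a median of 26 UMIs in Bnip3-high cells and 40.5 in the others. The 236 non-cycling C3 cells that were not Bnip3-high had 5 of 26 p53 targets higher than the non-cycling cells outside C3 (median 0.26), against 4.77% of all genes. Among the 218 thinned others, hypoxia and p53 sums were nearly unrelated (rho 0.10), while the p53 sum and Mxd4 had a rho of 0.28. Ccnd1, a D-type cyclin gene, was also lower in Bnip3-high cells (46.1 against 131 CPM), as was Siva1 (118 against 294 CPM).

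**Figure D4:**
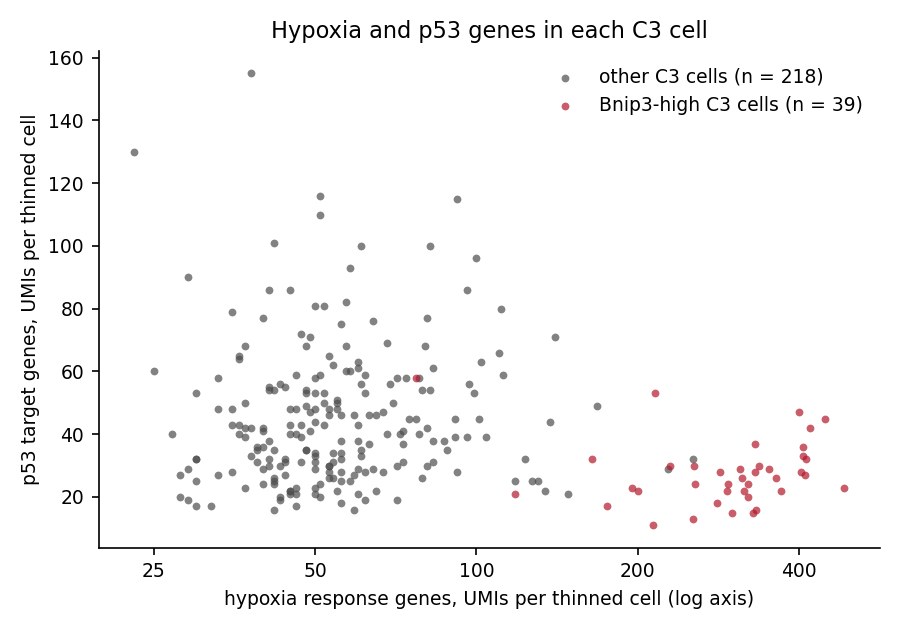
Summed UMIs of p53 target genes (vertical) against those of hypoxia response genes without Bnip3 (horizontal, log axis) in each C3 cell thinned to 23173 UMIs, for 39 Bnip3-high and 218 other C3 cells. The Bnip3-high cells lie to the right, with a median of 315 against 52.5 hypoxia UMIs and 26 against 40.5 p53 UMIs.

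Of 29 measured MYC growth targets, 13 were at least 1.5-fold lower in C3, against 15.5% of all genes, and 0 higher (median -0.44). Between non-cycling cells 6 were lower (median -0.28), against 11.7% of all genes and an all-gene median of -0.13. Srm, the spermidine synthase gene, was at 73.4 against 163 CPM, and Mcm5, a replication helicase subunit gene, at 11.2 against 52.3 CPM. Among 17 measured pigment genes, 2 were higher over all cells and 5 among non-cycling cells (median 0.41), against 4.91% of all genes, such as Slc45a2, a melanosome transporter gene (349 against 169 CPM). The deposited GSVA score for MITF, the master regulator of pigment cells, had a median of 0.009 in non-cycling C3 cells and -0.22 in non-cycling cells outside, a difference of scores and not of expression. Kdm5b, a histone demethylase of slow-cycling melanoma cells, was at 33.5 against 10.2 CPM over all cells but 35.8 against 30.9 among non-cycling ones (log2 ratio 0.21, -0.18 to 0.62). The deposited Kdm5b-high class held 64 of the 306 C3 cells. Among non-cycling cells it held 63 of 280 in C3 (22.5%) and 14 of 64 outside (21.9%). Within C3 it held 17 of the 46 Bnip3-high cells (37.0%) and 47 of the other 260 (18.1%).

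**Figure D5:**
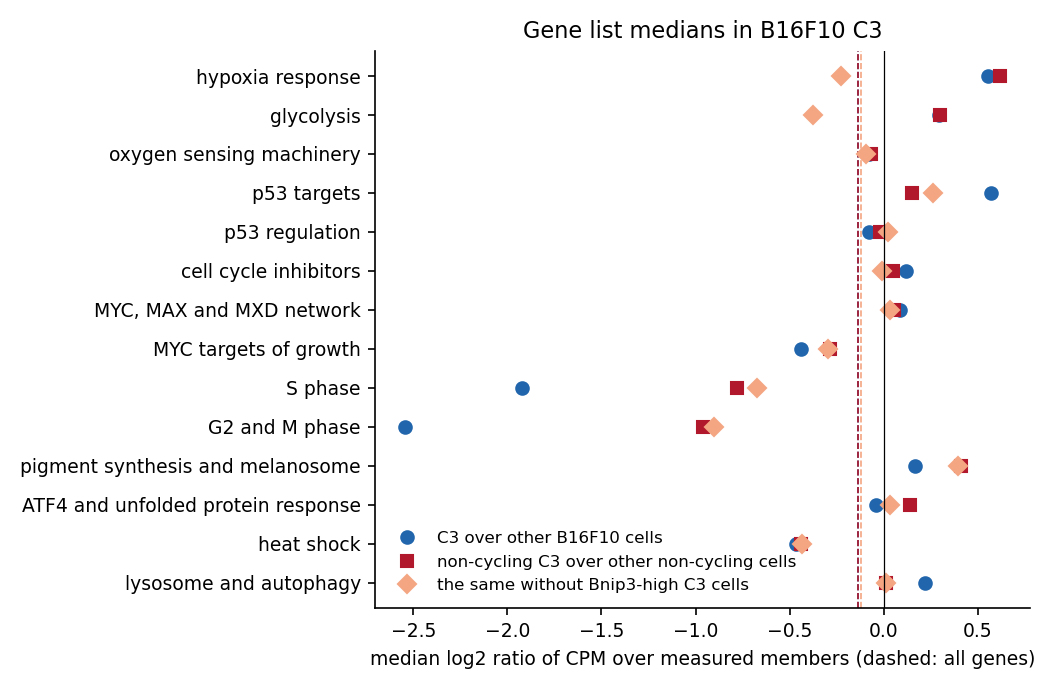
Median log2 ratio of CPM over the measured members of 14 gene lists (horizontal) for the same 3 comparisons, with dashed lines at the median of all genes. The S phase and G2 and M medians are -1.92 and -2.54 over all cells, and without Bnip3-high cells the hypoxia and glycolysis medians move to -0.23 and -0.37.

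In B16F0, C3 did not show the same sizes. There 4 of 21 measured hypoxia genes were at least 1.5-fold higher in C3 than in the other B16F0 cells (median 0.11), against 3.26% of all genes, and 2 of 21 among non-cycling cells (median 0.16), against 5.35%. For p53 targets it was 2 of 27 on both scales (medians 0.08 and 0.01). Bnip3 was at 29.8 against 18.4 CPM and Ero1l at 210.5 against 107 CPM. The leading genes of that cluster were Lgals3, the galectin-3 gene (202 against 52.2 CPM), and Tyr, the tyrosinase gene (141 against 39.5 CPM), which was at 27.9 CPM in C3 of B16F10. The difference between the lines was not tested, since each line is 1 library.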

How the data were processed

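The labels' protocols name 10x Chromium v2 chemistry. The submitters' processing notes name the mm10 build, Seurat 3.0 and Cell Ranger 3.0.0. The deposited UMI counts per gene and cell (14959 genes) were used; the natural log expression table that the authors deposited was not. Clusters, classes and scores are from the cell table the authors deposited, made by steps that no source used here describes. All deposited cells were kept and no doublet caller was run. Counts were summed per group and divided by the group's total (CPM). Fold limits were 2-fold at 20 CPM for all genes and 1.5-fold at 10 CPM for lists. Except where stated, the CPM limit applied to the higher of the 2 sums, so a gene could enter through 1 side alone. No test was possible with 1 library per line. Intervals are exact (Poisson, conditional binomial, Clopper-Pearson; 95%). Thinning to 23173 UMIs, the 10th percentile of B16F10 cells, left out 49 C3 and 109 other cells. A count of 0 was given a limit of 3 counts. Named genes were the markers, the 15 highest and 15 lowest ratios among non-cycling cells and the 10 and 10 over all cells (at 50 CPM), members of the lists, a few regulators and the genes most like the markers. The C3 cells, the markers and the 37 lists were chosen with earlier results of these data known, and the Bnip3-high class, its leading genes, the leading genes of B16F0 C3 and the values given for genes in single clusters after their values were seen, as was the 10 CPM limit set in cells that are not Bnip3-high for counts between Bnip3-high and other cells. Scripts ran in Python 3.11.15 with pandas 2.3.3, scipy 1.17.1, matplotlib 3.10.9 and numpy 2.4.6, with R 4.3.3, edgeR 4.0.16 (TMM) and DESeq2 1.42.0 for scaling factors only. The ratio and interval code was tested on simulated data. Other scalings, filters and cell sets were tried. One gene that the naming rule selects is not reported here.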

Additional observations from a re-analysis of the deposited data

Results flagged for a closer look

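Cdkn1a differed in opposite directions between the lines. In B16F10 it was at 297 CPM in C3 and 156 CPM in the other cells, a log2 ratio of 0.93, while in B16F0 it was at 255 against 359 CPM, a log2 ratio of -0.49. The other cells were unlike between the lines: 64 of 1268 were non-cycling in B16F10 (5.05%) and 602 of 1942 in B16F0 (31.0%). The difference between the log2 ratios was 1.42. It was not tested, because each line is 1 library.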

How the results depend on the processing

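No paired analysis was possible because each line has 1 library. For C3 against the other B16F10 cells, genes at least 2-fold higher numbered 114 with totals taken without mitochondrial and ribosomal genes, 12 at a minimum of 100 CPM and 1315 with none. Genes at least 2-fold lower numbered 76 and 924 at those minimums. The p53 median was 0.25 and the glycolysis median -0.066 at 100 CPM. Without Bnip3-high cells, an alternative chosen after seeing the data, the hypoxia median was -0.032, glycolysis -0.30 and Bnip3 -0.058. Genes with at least 20 CPM had a median of -0.14 in that setting. Among non-cycling cells, higher genes numbered 84 by TMM, 80 by DESeq2 factors, 104 without mitochondrial and ribosomal genes, 114 with both cycle scores under -0.1 (also chosen after seeing the data), 11 at 100 CPM and 458 with no minimum. Lower genes numbered 72 by TMM, 226 with scores under -0.1, 28 at 100 CPM and 1122 with no minimum. The p53 median with scores under -0.1 (225 C3 cells and 29 others) was -0.059, beside -0.18 over genes with at least 20 CPM. Without Bnip3-high cells the hypoxia median was -0.23, glycolysis -0.37 and Bnip3 -0.24, and at 100 CPM glycolysis was -0.087. Minimums change how many genes enter, and the cause of the other changes was not tested. With the Bnip3-high limit at 100 or 500 CPM, 54 or 39 cells passed. The unthinned share of C3 cells with an Mxd4 UMI was 65.7%, against 57.6% thinned.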
